A study of Mus musculus with 5 samples.

Results

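The Kruppel-like factors (KLFs) are DNA-binding proteins, and the signal of 9 of their genes was followed here in 5 mouse embryonic stem cell (ESC) lines. The genes were Klf2, Klf3, Klf4, Klf5, Klf6, Klf7, Klf9, Klf10 and Klf13. They were chosen by name, with earlier results of these data known, and every non-control probe of the array that carried one of these names was taken, which gave 16 of 41174 probes. Of these, 15 were well above background on all 5 arrays and were compared between lines. The remaining probe, the second for Klf13, was not well above background on any array and was left out of all comparisons.

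Total RNA of ESCs grown on gelatin in medium with serum and LIF, the cytokine that keeps mouse ESCs undifferentiated, was measured on one-colour Agilent arrays, of which each line had 1. Of the lines, 2 were wild type. RF8, of 129sv origin and labelled male, was the parental line in which the gene was targeted. #620-2, of C57BL6/129sv origin and labelled female, was derived from a wild-type blastocyst of a cross between ECAT11 WT/EGFP heterozygous mice. The other 3 lines were ECAT11 EGFP/EGFP, namely #620-6 (labelled female), #757-1 and #757-2 (both labelled male), all of C57BL6/129sv origin. In these lines both copies of the coding region of ECAT11, a gene expressed in ESCs whose protein resembles a component of L1 retrotransposons, were replaced by EGFP followed by a puromycin resistance gene. All ECAT11 EGFP/EGFP lines go back to a single targeted RF8 clone that was passed through mice. ESC lines of this study were established on SNL feeder cells before growth on gelatin. The only female-labelled lines were those whose number begins with 620, so that sex label and line number cannot be told apart, and RF8 was the only line of pure 129sv origin.

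KLFs bind GC-rich and CACCC-like elements through zinc fingers at the end of the protein, which are joined by a conserved linker and are much alike between family members. The rest of the protein differs and sets what is recruited. In mouse ESCs Klf2, Klf4 and Klf5 are known as a core set that occupies many of the same enhancers, supports self-renewal and can in part replace one another, and Klf4 is one of the factors used to make induced pluripotent stem cells. Klf4 is a known target of the LIF to STAT3 pathway. Klf3 is a repressor that works through CtBP, Klf9, Klf10 and Klf13 form a branch that recruits Sin3, and Klf6 and Klf7 form a branch of mostly activating factors.

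Probes on this array are 60 bases long. The following 3 are shown because their genomic interval is longer than the probe, so that each joins sequence from either side of a gap, and because they were compared between lines. The second probe for Klf13 also spans such a gap and is not shown, since it was not well above background. Capitals mark the codons of the zinc finger linker in the probes for Klf5 and Klf13. The probe for Klf3 holds no linker codons.
Klf5 probe 1: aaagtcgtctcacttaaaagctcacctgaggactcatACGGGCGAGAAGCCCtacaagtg
Klf13 probe 1: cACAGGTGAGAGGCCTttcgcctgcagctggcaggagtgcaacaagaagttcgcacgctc
Klf3 probe 1: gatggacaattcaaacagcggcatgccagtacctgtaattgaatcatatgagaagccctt
In mm7, the build of the deposited probe positions, they lie on the plus strand of chromosome 14 from 93704580 to 93714312, on the minus strand of chromosome 7 from 59641560 to 59687788, and on the plus strand of chromosome 5 from 64177140 to 64177720. The linker starts at base 38 of the Klf5 probe and at base 2 of the Klf13 probe. The sequences of these probes differ both within the linker codons and outside them. The probe for Klf4, A_51_P213544, lies on the minus strand of chromosome 4 from 55541780 to 55541839.

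Each signal below is a log2 value in which 0 is the 75th percentile of the array, so that a difference of 1 is a 2-fold difference. Levels are compared between lines for the same probe, never between probes, since probes differ in how well they hybridize. Probe 1 is the brighter probe of a gene. Slide 1 carried RF8, #620-2 and #620-6, with 26371 to 27144 probes well above background, and slide 2 carried #757-1 and #757-2, with 22061 and 21250. No spot was saturated. Repeated spots of one probe within an array had an SD of 0.088 to 0.124, and 2 arrays were taken to differ beyond this spot error where a probe differed by more than 0.345 (95% limit). That limit covers spots of an array and not cultures or RNA extractions, since no line was measured again. Tests were run with limma on all 28972 probes kept, p-values were adjusted by Benjamini-Hochberg, and a probe was called where its adjusted p was under 0.05 and it differed by more than 2-fold. No Klf probe was called in any comparison, so the values below are levels and differences that did not pass the test.

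**Figure D1:**
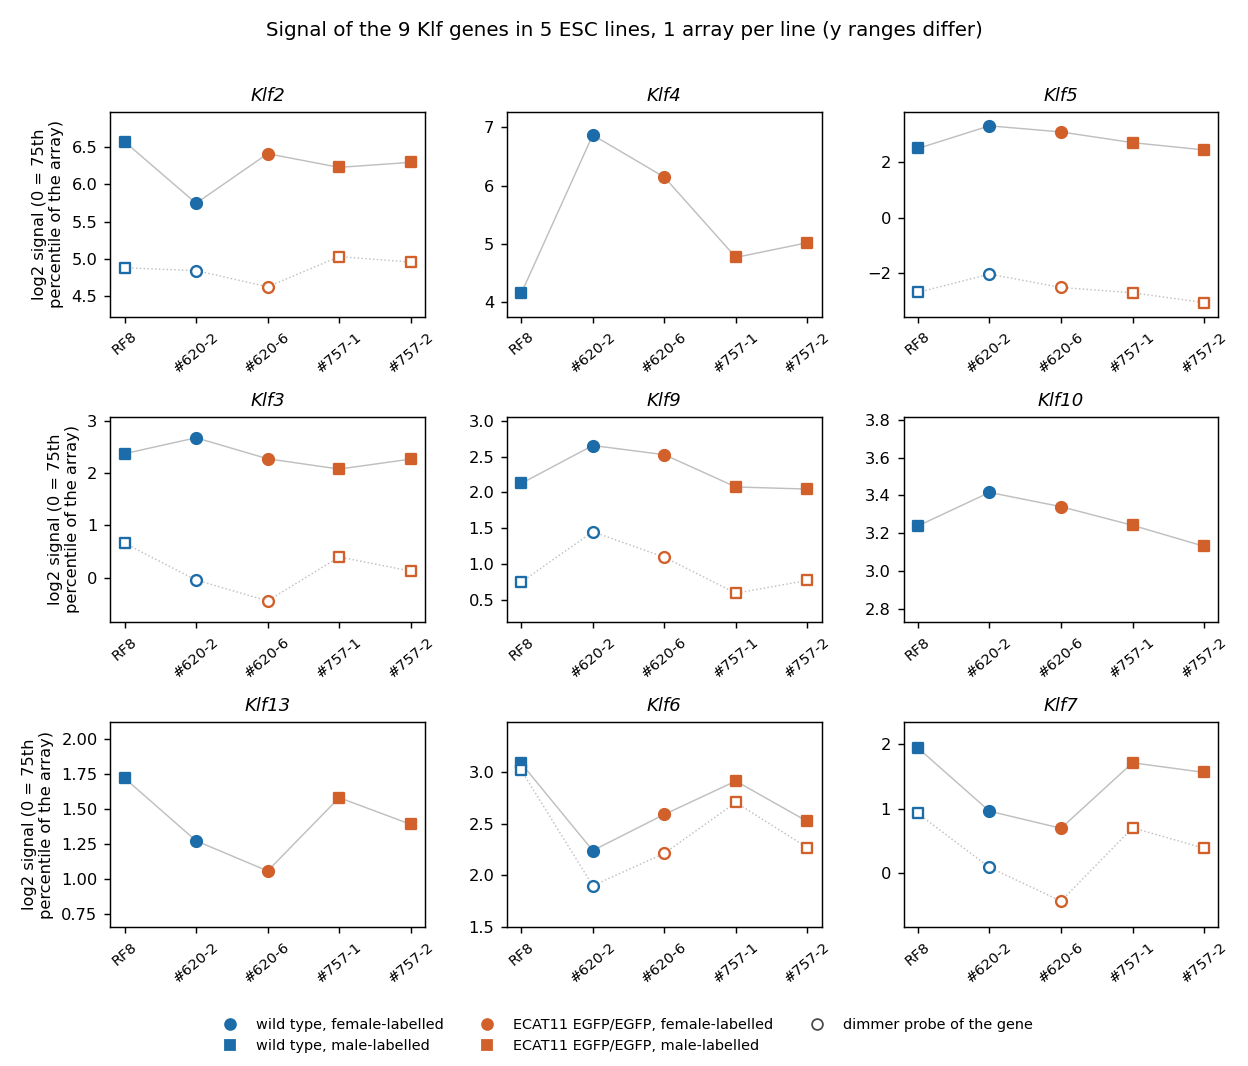
Log2 signal (y axis, 0 is the 75th percentile of the array) of the 9 Klf genes in each of the 5 ESC lines (x axis), 1 array per line and no error bars. Filled symbols are probe 1, open symbols the dimmer probe, blue is wild type, orange ECAT11 EGFP/EGFP, circles are female-labelled and squares male-labelled lines. Klf4 is highest in #620-2 (6.87) and #620-6 (6.15) and lowest in RF8 (4.15), whereas Klf10 runs from 3.13 to 3.42.

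Klf4 varied most among the 9 genes. On the log2 scale RF8 stood at 4.15, #620-2 at 6.87, #620-6 at 6.15, #757-1 at 4.77 and #757-2 at 5.02. Both lines numbered 620 were above the other 3, and the lowest and the highest value both belonged to wild-type lines. In the order from high to low, #620-2, #620-6 and #757-2 differed from their neighbours by 0.72 and 1.13, beyond the spot error, #757-2 and #757-1 differed by 0.25, within it, and #757-1 and RF8 by 0.62, beyond it. The range over the 5 lines was 2.72, or 6.59-fold, a range above that of 98.1% of the 20622 probes that every array measured well above background. Wild-type ESCs had a mean of 5.51 ± 1.92 (SD, n = 2) and ECAT11 EGFP/EGFP ESCs 5.31 ± 0.73 (SD, n = 3), and the groups overlapped. The log2 fold change, ECAT11 EGFP/EGFP over wild type, was -0.20 with an SE of 0.94 (limma, adjusted p = 0.985). It was -1.56 without RF8 and 1.16 without #620-2, so that its direction depended on which wild-type line was used. In RNA of whole cultures, fewer cells that express a gene and less of its RNA per cell cannot be told apart.

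Klf5 followed the same order of sex labels over a smaller range. For probe 1, RF8 stood at 2.49, #620-2 at 3.30, #620-6 at 3.08, #757-1 at 2.70 and #757-2 at 2.44. The gap between #620-6 and #757-1 was 0.39, the only gap between neighbours beyond the spot error. Probe 2 had -2.69, -2.03, -2.51, -2.71 and -3.06 in the same order of lines, again with both lines numbered 620 above the others. By this probe, however, #620-6 lay above RF8 only within the spot error. This second probe lies on the same chromosome from 93706061 to 93706120, inside the interval that probe 1 spans. Whether both probes read the same transcript of Klf5 was not tested. The genotype groups overlapped for both probes, with log2 fold changes of -0.16 (SE 0.34, limma adjusted p = 0.971) and -0.40 (SE 0.29, limma adjusted p = 0.864).

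Klf2, the third factor of the core set, did not share this order. For probe 1, RF8 stood at 6.57, #620-2 at 5.74, #620-6 at 6.41, #757-1 at 6.22 and #757-2 at 6.29. The line #620-2 lay 0.48 below the next line, and the other 4 lines had no gap between neighbours beyond the spot error. Thus the wild-type line with the highest Klf4 signal had the lowest Klf2 signal, and RF8, lowest for Klf4, was highest for Klf2. Probe 2 did not show the low value of #620-2. Its log2 signals were 4.88, 4.84, 4.63, 5.03 and 4.96 in the same order of lines, and its range of 0.40 was less than the 0.82 of probe 1. The log2 fold changes between genotypes were 0.15 (SE 0.29, limma adjusted p = 0.967) for probe 1 and 0.01 (SE 0.19, limma adjusted p = 0.998) for probe 2. Without #620-2 the value of probe 1 was -0.26.

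The genotype groups did not overlap for 1 of the 15 Klf probes, beside 23.5% of all probes. It was probe 1 of Klf3, the repressor of the CtBP branch. For probe 1 the wild-type lines stood at 2.37 (RF8) and 2.68 (#620-2), and the ECAT11 EGFP/EGFP lines at 2.27 (#620-6), 2.08 (#757-1) and 2.27 (#757-2). The smallest distance between the groups, from RF8 to #620-6, was within the spot error, as were all gaps between neighbours. The log2 fold change was -0.32 (SE 0.18, limma adjusted p = 0.794). Probe 2 had 0.66, -0.04, -0.45, 0.40 and 0.13 in the order RF8, #620-2, #620-6, #757-1 and #757-2, with overlapping genotype groups and a log2 fold change of -0.28 (SE 0.36, limma adjusted p = 0.938). The probes disagreed on the order of the lines, since #620-2 was highest by probe 1 and next to lowest by probe 2.

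In the branch that recruits Sin3, Klf9 was higher in both lines numbered 620, Klf13 was lower in both, and Klf10 hardly varied. For probe 1 of Klf9, RF8 stood at 2.12, #620-2 at 2.65, #620-6 at 2.53, #757-1 at 2.08 and #757-2 at 2.05. The gap of 0.40 between #620-6 and RF8 was the only one beyond the spot error, and the lines on either side of it lay close together. Probe 2 of Klf9 gave the same split, with 0.75, 1.45, 1.09, 0.59 and 0.77 in the same order of lines. By that probe #620-6 and #757-2, the nearest lines across the split, differed within the spot error. Klf13, by its only probe above background, had RF8 at 1.72, #620-2 at 1.27, #620-6 at 1.05, #757-1 at 1.58 and #757-2 at 1.39. No neighbouring lines differed beyond the spot error for Klf13, whose range was 0.66. Klf10, an early target of TGF-beta signalling, had 3.24, 3.42, 3.34, 3.24 and 3.13 in the same order. Its range of 0.29, or 1.22-fold, was the smallest of the members and stood at percentile 14.5 among the same probes. The genotype log2 fold changes of these genes by probe 1 were -0.17 for Klf9, -0.09 for Klf10 and -0.15 for Klf13, with SEs of 0.26, 0.16 and 0.25 (limma, adjusted p = 0.954, 0.963 and 0.957).

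Klf6 and Klf7 ran opposite to Klf4 and Klf5. For probe 1 of Klf7, RF8 stood at 1.93, #620-2 at 0.96, #620-6 at 0.70, #757-1 at 1.71 and #757-2 at 1.56. The gap of 0.60 between #757-2 and #620-2 was beyond the spot error and the others were not. Probe 2 of Klf7 showed the same order, with 0.92, 0.09, -0.42, 0.70 and 0.39 in the same lines, but its gap between #757-2 and #620-2 was within the spot error. Klf6 was highest in RF8 and lowest in #620-2 by both probes. Its probe 1 had 3.08, 2.24, 2.59, 2.91 and 2.52, and its probe 2 had 3.02, 1.90, 2.21, 2.71 and 2.27, in the order RF8, #620-2, #620-6, #757-1 and #757-2. By probe 1 of Klf6 the sex-label groups overlapped, since #757-2 lay below #620-6. By probe 2 they did not, though these 2 lines differed within the spot error. The genotype log2 fold changes by probe 1 were 0.01 for Klf6 (SE 0.31, limma adjusted p = 0.999) and -0.13 for Klf7 (SE 0.46, limma adjusted p = 0.981).

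**Figure D2:**
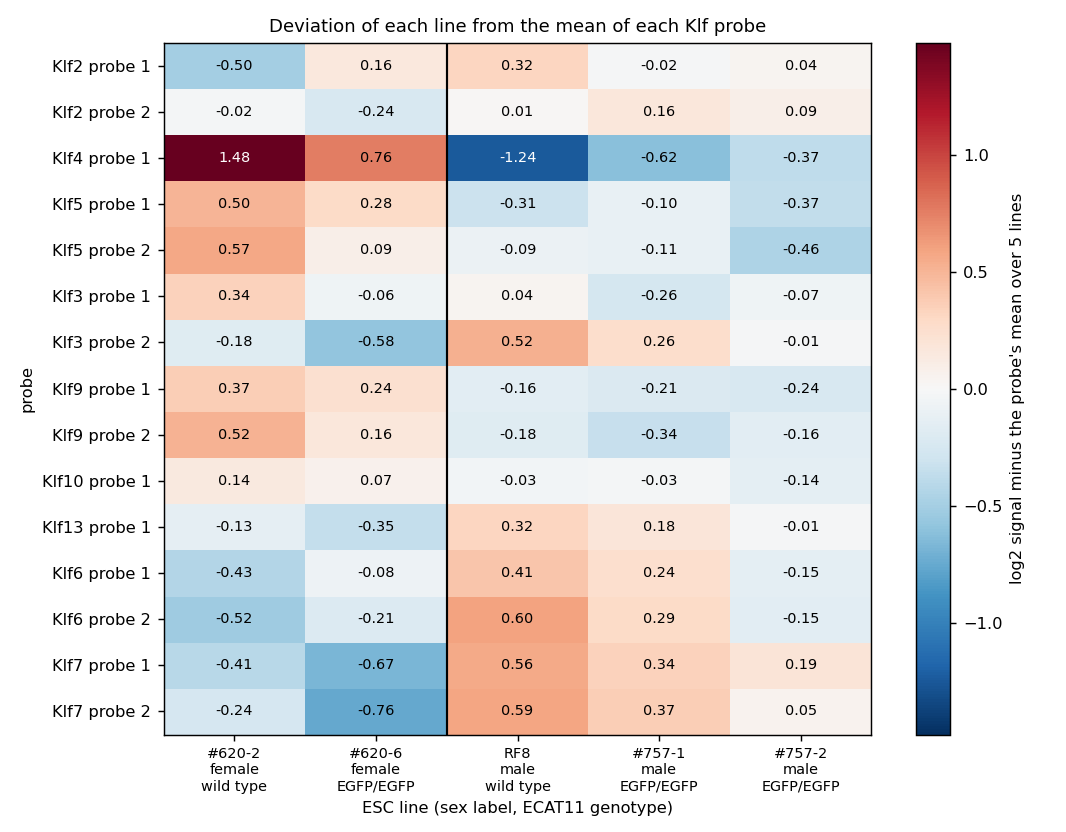
Log2 signal of each line (x axis, with sex label and ECAT11 genotype) minus the mean of the probe over the 5 lines, for the 15 Klf probes (y axis), in colour and printed in each cell. The black line separates female-labelled from male-labelled lines. Klf4 (1.48 in #620-2 and -1.24 in RF8) and Klf7 (-0.67 in #620-6 and 0.56 in RF8 by probe 1) have opposite signs on either side of it.

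Whether loss of ECAT11 changes Klf signals was addressed by comparing the 3 ECAT11 EGFP/EGFP lines with the 2 wild-type lines. None of the 15 Klf probes was called, and none had an unadjusted p under 0.05 in limma. The methods' t-test, an unpaired test of each probe alone, likewise gave 0 Klf probes before and 0 after Benjamini-Hochberg adjustment. Of all probes tested, 0.00345% were called and 7.6% had an unadjusted p under 0.05. The log2 fold changes of the Klf probes ran from -0.40 to 0.15, with SEs of 0.16 to 0.94 and adjusted p of 0.794 to 0.999. By direction alone, ECAT11 EGFP/EGFP ESCs had 3 probes higher and 12 lower, with a median log2 fold change of -0.16, beside -0.02 over all probes. The median without its sign was 0.16, beside 0.22 over all probes. The groups did not overlap for 1 of the 15 probes, beside 23.5% of all probes. The median was 0.028 without RF8, -0.045 without #620-6 and -0.088 without #757-2, so that it was not below 0 without RF8.

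The genotype comparison crosses slides, since only slide 1 held both genotypes. With slide as a block, which sets #620-6 against RF8 and #620-2 on slide 1, no Klf probe was called either. The log2 fold changes by probe 1 were then 0.64 for Klf4, 0.19 for Klf5, -0.073 for Klf6, 0.14 for Klf9 and 0.013 for Klf10, each of the opposite sign to the value without the block. Klf2 (0.25), Klf3 (-0.25), Klf7 (-0.75) and Klf13 (-0.44) kept their sign.

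The difference between genotypes was described in each sex label, with 1 wild-type line in each. In the female label it rested on 1 array per genotype. In the male label, #757-1 and #757-2 differ from RF8 in slide and strain origin as well as in genotype. These cannot be told apart there, so the interactions below cannot be assigned to genotype and sex label alone. Klf4 was lower by 0.72 on the log2 scale in #620-6 than in #620-2, and higher by 0.62 in #757-1 and by 0.87 in #757-2 than in RF8. Klf2 probe 1 went the other way, higher by 0.66 in #620-6 than in #620-2 and lower by 0.34 in #757-1 and by 0.28 in #757-2 than in RF8. Klf2 probe 2 had the opposite sign to probe 1 in each of these pairs, with log2 differences of -0.22 for #620-6 minus #620-2, 0.15 for #757-1 minus RF8 and 0.077 for #757-2 minus RF8, and an interaction of -0.33 (SE 0.26, limma unadjusted p = 0.30, adjusted p = 0.707). The pattern of probe 1 was thus not shared by both probes of the gene. The interaction of genotype and sex label in limma was -1.47 for Klf4 (SE 0.32, unadjusted p = 0.021, adjusted p = 0.392) and 0.97 for Klf2 probe 1 (SE 0.26, unadjusted p = 0.036, adjusted p = 0.439). These were the only 2 of the 15 Klf probes with an unadjusted p under 0.05 for the interaction, beside 10.6% of all probes, and limma called 0 of all probes after adjustment. In each case the ECAT11 EGFP/EGFP lines lay between the wild-type lines, and 1 residual degree of freedom remained in this fit before limma pooled the spread over probes.

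**Figure D3:**
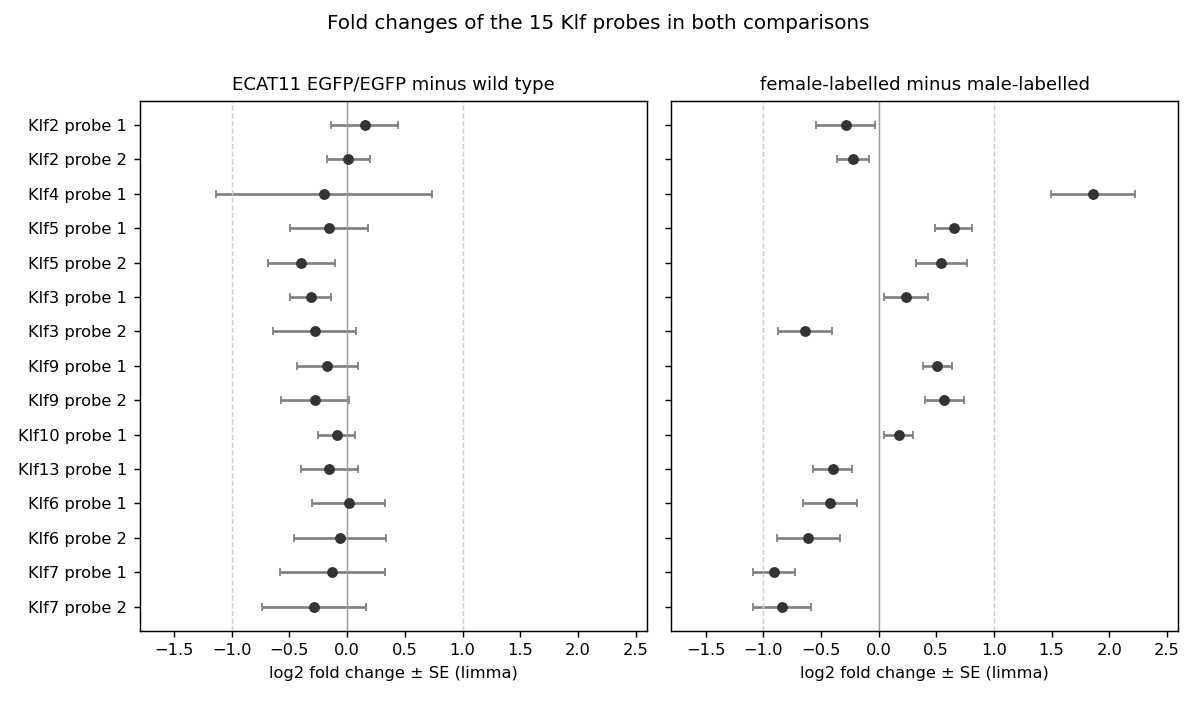
Log2 fold changes (x axis, dots) with their standard errors from limma (bars) for the 15 Klf probes (y axis), on the left for 3 ECAT11 EGFP/EGFP against 2 wild-type lines and on the right for 2 female-labelled against 3 male-labelled lines. Dashed lines mark 2-fold. On the left the values lie between -0.40 and 0.15, on the right between -0.90 (Klf7) and 1.86 (Klf4), and no probe was called on either side.

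The same lines were compared by sex label, 2 female-labelled against 3 male-labelled. The core factors Klf4 and Klf5 and the Sin3 branch gene Klf9 had higher values in the female-labelled lines and Klf7, Klf6 and Klf13 lower ones, but no Klf probe was called, beside 0.342% of all probes. For Klf4 the mean was 6.51 ± 0.51 (SD, n = 2) in female-labelled and 4.65 ± 0.45 (SD, n = 3) in male-labelled lines, a 3.63-fold difference and a log2 fold change of 1.86 (SE 0.36, unadjusted p = 0.0047, limma adjusted p = 0.119). It stayed between 1.5 and 2.22 when each line in turn was left out. The sex-label comparison crosses slides, since both female-labelled lines were on slide 1 and slide 2 held only male-labelled lines. With slide as a block the value for Klf4 was 2.36. That value rests on 1 male-labelled line, RF8, which was the only one on slide 1 and the lowest for Klf4. For Klf7 probe 1 the means were 0.83 ± 0.19 (SD, n = 2) and 1.73 ± 0.19 (SD, n = 3), with a log2 fold change of -0.90 (SE 0.18, unadjusted p = 0.0052, limma adjusted p = 0.124), and probe 2 gave -0.84 (SE 0.25, limma adjusted p = 0.209). The 2 genes therefore differed in opposite directions between the same lines.

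Among the other members, Klf5 probe 1 had a log2 fold change of 0.65 (SE 0.16, unadjusted p = 0.011, limma adjusted p = 0.158) and Klf9 probe 1 one of 0.51 (SE 0.13, unadjusted p = 0.012, limma adjusted p = 0.163), female-labelled over male-labelled. The second probes of both genes had the same sign, with 0.55 for Klf5 and 0.57 for Klf9. Klf6 had -0.42 and -0.61 by its probes, Klf13 -0.40, Klf2 -0.29 and -0.22, and Klf10 0.17. The probes for Klf3 disagreed in sign, with 0.24 by probe 1 and -0.64 by probe 2.

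Of the 15 Klf probes 7 had an unadjusted p under 0.05 in limma, 4 higher and 3 lower in the female-labelled lines, beside 18.0% of all probes. The count was 4 without #620-2, beside 15.03% of all probes, and 4 without #757-1, beside 12.3%. By the methods' t-test it was 5, beside 16.2% of all probes, and 0 after adjustment. The groups did not overlap for 12 of the 15 probes, 6 higher and 6 lower, beside 39.0% of all probes. The median difference without its sign was 0.55 on the log2 scale, beside 0.29 over all probes. No exact permutation of 2 lines against 3 reaches a p lower than 0.1, so that single values cannot pass 0.05 by that test.

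Markers of other cells moved with the sex label as well. All 8 primitive endoderm probes (5 genes) were higher in the female-labelled lines, 2 of them called, beside 0.342% of all probes called. Their summed linear signal, in units of the 75th percentile, was 1.24 to 1.40 in those lines and 0.26 to 0.38 in the others. Only the probe for Gata6 and the brighter probe for Sox7 were well above background on every array, the other primitive endoderm probes on 1 to 3. The called probes were 1 for Sox17 and 1 for Pdgfra, a receptor of primitive endoderm. This Pdgfra probe was well above background in both female-labelled lines (-1.98 and -1.94) and in no other line, so it entered the test through them. In #757-1 and #757-2 both called probes lay below the lowest signal well above background (-4.49 and -4.22), which leaves the size of their differences uncertain. Fibroblast or feeder markers (10 probes, 7 genes) had a sum of 9.28 to 9.70 in the female-labelled and 2.50 to 16.0 in the male-labelled lines, with the highest sum in RF8, which Col1a1 and Col1a2 made up for the most part. Probe by probe, 6 were higher and 4 lower in the female-labelled lines, with a median log2 fold change of 1.06 and none called. At an unadjusted p under 0.05 in limma, which 18.0% of all probes passed, 3 were higher and 1 was lower. The higher ones were for Dcn (2.45, SE 0.31), Col3a1 (2.6, SE 0.46) and Thy1 (1.68, SE 0.33). The lower one was a probe for Col1a1 that was well above background on 1 array. In this list 7 probes were well above background on every array, while the probe for Lum was so on 2 arrays. The pluripotency markers Pou5f1, Sox2 and Nanog were well above background in every line, with a sum of 29.3 in RF8 and 42.3 to 53.4 in the other lines. Genes of the Y chromosome were at background in both female-labelled lines, and 5 of their 6 probes were called lower there. Each of these probes was well above background on 3 arrays. They entered the test only through the male-labelled lines, so their direction followed from the filter. For Xist 3 of the 4 probes were higher in the female-labelled lines with none called, and each was well above background on 2 arrays. None of the probes for epiblast and mesoderm, neural or trophoblast markers was called in either comparison. By sex label the log2 fold change was -1.78 for Fgf5 (SE 0.34, limma adjusted p = 0.115) and -1.56 for T (SE 0.59, limma adjusted p = 0.275), which mark epiblast and mesoderm, and 0.95 for Eomes (SE 0.18, limma adjusted p = 0.113). In #620-6 (-6.39) and #757-1 (-4.75) T lay below the lowest signal well above background of the array (-6.22 and -4.49). The size of its difference is therefore uncertain. The neural gene Pax6 had -1.32 and -1.20 by its probes (SE 0.43 and 0.42, limma adjusted p = 0.230 and 0.253). Each of these probes had an unadjusted p under 0.05 in limma, beside the same 18.0% of all probes, and no trophoblast probe did. The part of these markers in the Klf differences was not tested.

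**Figure D4:**
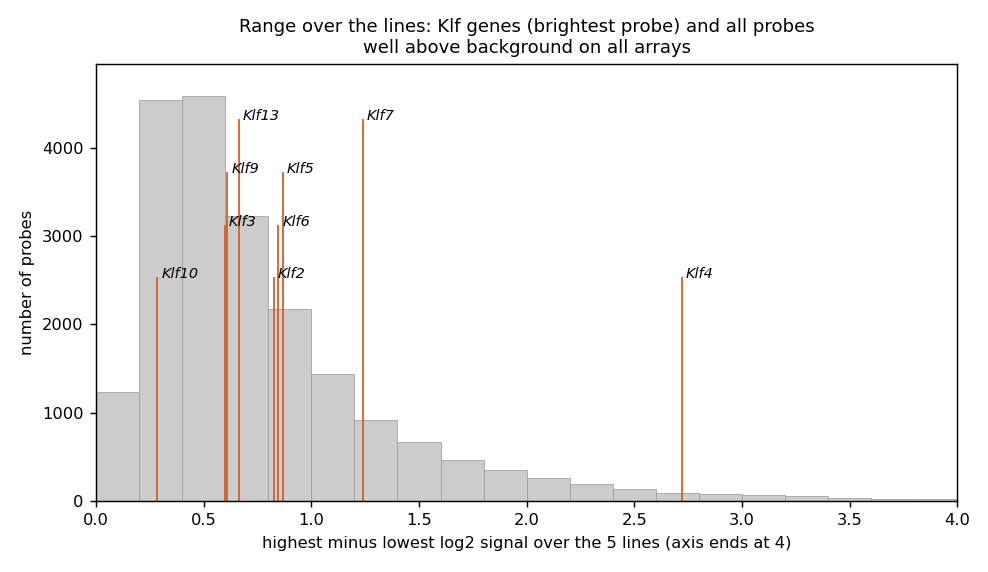
Number of probes (y axis) by the highest minus the lowest log2 signal over the 5 lines (x axis), for the 20622 probes that every array measured well above background (grey bars). Orange lines mark the Klf genes by their brighter probe, and their heights only separate the names. Klf4 stands far to the right at 2.72, followed by Klf7 at 1.24, while Klf10 lies at 0.29.

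Over the 5 lines the median range of the 9 genes by probe 1 was 0.82 on the log2 scale, beside 0.60 over those 20622 probes. Of the 15 Klf probes 6 had a range past 2-fold (Klf4, both probes for Klf7, and the second probes for Klf3, Klf5 and Klf6), beside 23.5% of all these probes. After Klf4 and Klf7 (1.24, or 2.36-fold) came Klf5 (0.87), Klf6 (0.84), Klf2 (0.82), Klf13 (0.66), Klf9 (0.61), Klf3 (0.60) and Klf10 (0.29). Leaving out RF8 gave a median of 0.66 and leaving out #620-2 a median of 0.56.

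Pairs of lines had 1 array each, so their differences were described without a test. The wild-type pair, RF8 and #620-2, was the farthest apart of the 3 pairs described here, with a median difference of 0.70 without its sign, beside 0.31 over all probes. Past 2-fold were 2 of the 15 Klf probes, Klf4 (lower by 2.72 in RF8) and probe 2 of Klf6 (higher by 1.12 in RF8), beside 10.3% of all probes. Between #620-6 and #620-2, which share the number and sex label but not the genotype, the median was 0.35, beside 0.25, and 0 Klf probes passed 2-fold, beside 7.1%. Between #757-1 and #757-2, which share number, sex label and genotype, the median was 0.19, beside 0.15, and again 0 passed, beside 1.82%. The largest Klf differences in this last pair were those of Klf6, 0.39 and 0.44 by its probes.

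Genes with the profile closest to a core factor were found by the root mean square (RMS) difference of the centred log2 signals over the 5 lines, among 20622 probes. The profiles were not scaled, so the number of near neighbours also depends on the range over the lines, 2.72 for Klf4 and 0.87 for Klf5. Nearest to Klf4 were Laptm5 (0.16), a probe with the name NAP122883-1 (0.18) and Sema5b (0.18), and no probe came as close as the spot SD of 0.124. Klf5 had many close neighbours, 155 within the spot SD, led by Siah1b (0.025), Stradb (0.044) and Phf8 (0.048). Siah1b and Phf8 lie on the X chromosome and Stradb on chromosome 1. Klf2 had 179 within the spot SD, led by Cltc (0.051), Dzank1 (0.051) and B930069K15Rik (0.053). A likeness over 5 lines describes these arrays, and many probes share any given order of so few lines.

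Related genes and pathway members were described from lists by name. Of the other KLF genes, 7 of 8 were kept, with 11 probes. None was called in either comparison, with 0 higher and 2 lower between genotypes (7.6% of all probes passed) and 2 higher and 2 lower between sex labels (18.0% of all probes passed) at an unadjusted p under 0.05. Klf17 had the smallest p between genotypes, with a log2 fold change of -1.12 (SE 0.23, limma adjusted p = 0.425), but was well above background on only 3 arrays. A probe for Klf8, an X-linked member of the CtBP branch, had RF8 at 0.95, #620-2 at 1.93, #620-6 at 2.20, #757-1 at 1.36 and #757-2 at 1.46, a log2 fold change of 0.81 by sex label (SE 0.22, limma adjusted p = 0.178). Klf15 had the opposite sign by both its probes, the dimmer with -1.0 (SE 0.12, limma adjusted p = 0.0719) and the brighter with -0.85 (SE 0.15, limma adjusted p = 0.106). Of 10 probes for the Sp family, which shares the zinc finger type, none was called, and Sp1 had a log2 fold change between genotypes of -0.73 (SE 0.22, limma adjusted p = 0.571).

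Corepressors, coactivators and ubiquitin ligases that act with KLFs gave 20 probes for 10 genes, and 0 were called in either comparison. Hdac1, a deacetylase of Sin3 complexes, had RF8 at 5.52, #620-2 at 4.86, #620-6 at 4.82, #757-1 at 5.47 and #757-2 at 5.44, a log2 fold change of -0.64 by sex label (SE 0.12, limma adjusted p = 0.115). A probe for Wwp1, a ligase for KLF proteins, had a log2 fold change of 0.81 between genotypes (SE 0.28, limma adjusted p = 0.616), but the brightest Wwp1 probe had 0.23 and the others 0.10 and -0.03. The arm from the LIF receptor to STAT3, upstream of Klf4, gave 15 probes for 7 genes, again with 0 called, and 0 at an unadjusted p under 0.05 between genotypes and 1 between sex labels, beside the same 7.6% and 18.0% of all probes. That probe was for the kinase Jak1, with a log2 fold change of 0.42 by sex label (SE 0.13, limma adjusted p = 0.224). Socs3, a feedback target of STAT3, ran from 4.48 in RF8 to 4.87 in #620-2, with 4.49, 4.64 and 4.60 in #620-6, #757-1 and #757-2.

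Other factors of naive pluripotency gave 20 probes for 13 genes, none called. Between sex labels 13 were higher and 7 lower in the female-labelled lines, with a median log2 fold change of 0.56, beside -0.02 over all probes. Tbx3, which acts beside Klf4 in the response to LIF, had RF8 at 1.18, #620-2 at 4.45, #620-6 at 4.43, #757-1 at 2.27 and #757-2 at 2.94 by its brighter probe, a log2 fold change of 2.31 (SE 0.54, limma adjusted p = 0.153). Like Klf4 it was lowest in RF8 and higher in both lines numbered 620. Nr5a2 had the opposite sign, -0.86 (SE 0.13, limma adjusted p = 0.0888). Between genotypes 16 probes of this list were higher and 4 lower, with a median log2 fold change of 0.38, beside -0.02 over all probes. At an unadjusted p under 0.05 in limma 3 were higher and 0 lower, beside 7.6% of all probes. Fbxo15 had the smallest p, with 1.23 (SE 0.29, limma adjusted p = 0.471). RF8 was the lowest line for Nanog, Nr0b1 and every probe for Tfcp2l1 and Esrrb, whereas #620-2 was lowest for Fbxo15 and Dppa3. Immediate early genes, to which Klf2, Klf4, Klf6 and Klf10 are related by their rapid induction, gave 20 probes for 13 genes with 0 called. By sex label 12 were higher and 8 lower in the female-labelled lines, with a median log2 fold change of 0.22. At an unadjusted p under 0.05 in limma 2 were higher and 4 lower, beside 18.0% of all probes. Egr2 had a log2 fold change of -1.51 by sex label (SE 0.28, limma adjusted p = 0.112) and a probe for Btg2 one of 1.01 (SE 0.27, limma adjusted p = 0.177).

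The 250 bases before the transcription start were available from RefSeq (GRCm38.p6) for 7 of the 9 genes, without Klf5 and Klf10. GGGCGG, the box bound by Sp and KLF proteins, and CACCC were searched on both strands, with overlapping matches counted. GGGCGG was present in 6 of the 7 windows and in 32.7% of 32851 windows of all genes, and CACCC in 5 of the 7 and in 52.0% of all. TTCNNNGAA, the form of the STAT site, was present in 1 of the 7, that of Klf9, and in 7.02% of all. The windows of Klf4 and Klf7 are shown because these genes varied most between lines and in opposite directions, with GGGCGG or its reverse complement CCGCCC in capitals.
Klf4, chr4:55532476-55532725, minus strand: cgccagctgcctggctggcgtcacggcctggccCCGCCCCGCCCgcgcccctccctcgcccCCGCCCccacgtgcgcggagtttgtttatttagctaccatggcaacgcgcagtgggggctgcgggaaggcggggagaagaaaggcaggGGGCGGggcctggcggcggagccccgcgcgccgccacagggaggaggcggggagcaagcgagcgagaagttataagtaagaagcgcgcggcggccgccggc
Klf7, chr1:64121390-64121639, minus strand: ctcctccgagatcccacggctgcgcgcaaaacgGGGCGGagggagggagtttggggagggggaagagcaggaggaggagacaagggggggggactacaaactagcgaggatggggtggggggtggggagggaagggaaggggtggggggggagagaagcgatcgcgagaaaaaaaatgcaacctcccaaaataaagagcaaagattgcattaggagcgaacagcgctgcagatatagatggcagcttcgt
The Klf4 window held 4 GGGCGG matches and 0 CACCC matches, and the Klf7 window 1 and 3, with a GC content of 74.0% and 59.2%. A match describes the letters of this window and does not show a site that is bound.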

How the data were processed

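The authors hybridized total RNA of 5 ESC lines to one-colour Agilent arrays, 1 per line, and read the scans with Agilent Feature Extraction 9.5.3.1. They deposited for each of 45018 spots a background-corrected intensity that was not normalized between arrays. In their deposited log2 table each probe was centred and the columns had medians of -0.10 to 0.08. Its differences between arrays followed those of the intensities (slope 1.00, Pearson r 1.00 over 20622 probes).

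From the intensities, 1639 control spots were removed and marked spots (0.335%) set missing. Each array was divided by its 75th percentile (687.5 to 794.4), log2 was taken and spots of a probe were averaged. Probes Present on at least 1 array (28972) entered the fits of limma 3.58.1 (R 4.3.3). Names came from the RefSeq gene table by accession for 22951 probes and by symbol or synonym for 9768, and the file's name was kept for 8455. All 9 genes were named, each by its brightest probe with its other probes given, and from each list the probe with the smallest p in each direction was eligible to be named. The members and lists were chosen with earlier results of these data known. Simulated data with known changes were used to test the code. Tables were read with pandas 2.3.3 and data.table (version 1.17.8), and figures drawn with matplotlib 3.10.9.

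Alternatives were normexp background correction (offset 50), quantile scaling, values from the deposited log2 table, a stricter or no filter on dim probes, keeping marked spots, slide as a block, the other label as a covariate, the mean over probes of a gene, the methods' t-test, and leaving out each line. The number of arrays limits the precision. Blots, staining, growth, teratomas and mice are not analysed here.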

Additional observations from a re-analysis of the deposited data

How the results depend on the processing

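Across all alternatives run, no Klf probe was called between genotypes or sex labels, and for Klf4, Klf5, Klf6, Klf7, Klf9, Klf10 and Klf13 the sign of the sex-label difference was kept. The smallest adjusted p by sex label was 0.069 for Klf4, 0.077 for Klf7 and 0.082 for Klf9, each with normexp. Signs of the small genotype differences changed. Besides the slide block values of 0.64 (Klf4), 0.19 (Klf5), -0.073 (Klf6), 0.14 (Klf9) and 0.013 (Klf10), the sex label as a covariate gave 0.12 for Klf4 and -0.060 for Klf6, and Klf6 had -0.028 with quantile normalization and -0.026 with the mean over probes. Leaving out each line gave genotype ranges of -0.26 to 0.56 (Klf2), -1.56 to 1.16 (Klf4), -0.56 to 0.25 (Klf5), -0.41 to 0.43 (Klf6), -0.61 to 0.36 (Klf7), -0.44 to 0.092 (Klf9) and -0.38 to 0.070 (Klf13), and a median over the Klf probes of -0.17 to 0.028. By sex label it gave -0.62 to 0.046 for Klf2, a median of -0.22 to 0.035 and 4 to 7 probes at an unadjusted p under 0.05 (12.3% to 18.7% of all probes), and the median range over the lines was 0.56 to 0.82. With the mean over probes 4 of 9 genes had an unadjusted p under 0.05, beside 17.7% of all genes, and Klf3 had -0.20. Other causes were not tested. No paired analysis was run, because the labels give no replicate numbers and 620 is the only line number found in both genotypes. The higher background of slide 2 limits dim probes, and all Klf probes compared were above it.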
